A study of Mus musculus with 2 samples.

Results

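The members described here are 10 antioxidant genes of the mouse liver, namely the superoxide dismutases *Sod1*, *Sod2* and *Sod3*, catalase (*Cat*), the glutathione peroxidases *Gpx1* and *Gpx4*, the peroxiredoxins *Prdx1* and *Prdx3*, and the metallothioneins *Mt1* and *Mt2*. They were chosen by gene symbol, and the estimated read counts of all transcripts with a symbol were summed. The 10 genes were found among 45777 symbols, as 16 transcripts, and all 10 were among the 15857 genes that reached 10 counts in a library. Both groups were C57BL/6 N mice that were 7 weeks old when a high-fat diet (HFD) began, and both were kept on the HFD for 18 weeks. At week 13, 5 weeks before the end, the control mice received an adeno-associated virus carrying green fluorescent protein (AAV-GFP) and the other mice received the virus carrying the long noncoding RNA *Wee1-AS* (AAV-*Wee1-AS*), by injection behind the eye. The vector was AAV9 with a CMV promoter, which is not restricted to hepatocytes. One library of poly-A RNA per group was analysed, although the design text speaks of 4 liver samples, and nothing in the labels says whether livers were pooled. No difference below could be set against a spread between mice, which is unknown, and no p-value is given.

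Cells form superoxide mainly as a by-product of respiration and of oxidases. Superoxide dismutases turn it into hydrogen peroxide, SOD1 with copper and zinc in the cytosol, SOD2 with manganese in the mitochondrial matrix, and SOD3 outside the cell. Hydrogen peroxide is then removed by catalase in peroxisomes, by glutathione peroxidases, which draw on glutathione, and by peroxiredoxins, which draw on thioredoxin. Metallothioneins are small cysteine-rich proteins that bind zinc and copper, and liver makes them in response to metals, glucocorticoids and inflammation.

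The libraries held 55466182 (AAV-GFP) and 48079335 (AAV-*Wee1-AS*) estimated counts. Differences are given as log2 ratios of AAV-*Wee1-AS* over AAV-GFP after TMM scaling, a scaling to the bulk of genes, with a prior count of 2 added so that low counts give finite ratios. The bracketed intervals are exact (Clopper-Pearson) 95% intervals that cover counting error only. Over all 15857 genes the median log2 ratio was -0.00, and 95% of genes lay between -1.81 and 2.53. More than 2-fold higher values were found for 22.5% of genes and more than 2-fold lower values for 8.43%. The ratio ran with the GC content of the transcript over all genes, from a median of 1.52 in the tenth of genes poorest in GC to -0.68 in the tenth richest in GC. Each member is therefore set beside the median of all genes within 1 percentage point of its GC content, and values after removal of the GC and length trends are given as well. What made this trend was not tested. In these bulk samples, fewer cells of a type and less RNA per cell cannot be told apart.

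The members added up to 11467 TPM (a level per transcript length with the same total for both libraries) with AAV-GFP and 8562 TPM with AAV-*Wee1-AS*, or 1.15% and 0.856% of all TPM. Of the 10 members, 5 were higher and 5 were lower with AAV-*Wee1-AS*, where 49.9% of all genes were higher and 50.1% lower. The counting interval lay above 0 for the same 5 members that were higher and below 0 for the other 5, as it did for 39.6% and 37.4% of all genes. The median log2 ratio of the members was -0.07. None of the 10 was more than 2-fold higher and 2 were more than 2-fold lower, *Gpx4* and *Sod3*. Among the 5592 genes that reached 1000 counts in a library, as all members have, 17.2% were more than 2-fold higher and 3.93% lower. In the AAV-GFP library the order of levels from high to low was *Gpx1*, *Sod1*, *Gpx4*, *Cat*, *Prdx1*, *Prdx3*, *Mt1*, *Sod3*, *Mt2* and *Sod2*. The neighbours *Mt2* and *Sod2* in that order did not differ beyond counting error, which was 5.72% and 2.25% of their counts. With AAV-*Wee1-AS* the order was *Gpx1*, *Sod1*, *Cat*, *Prdx1*, *Gpx4*, *Mt1*, *Prdx3*, *Mt2*, *Sod2* and *Sod3*, so that *Gpx4* passed below *Cat* and *Prdx1*, and *Sod3* passed to the last place.

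**Figure D1:**
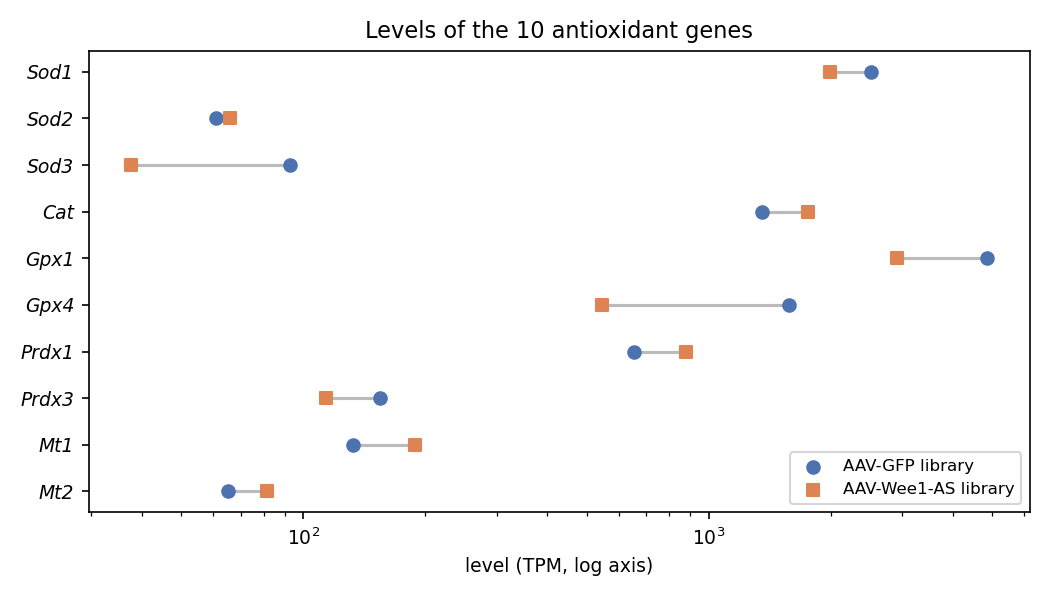
Level of each member in TPM (log axis) with AAV-GFP (circles) and with AAV-Wee1-AS (squares), 1 library per group, with a line joining the values of a gene. The widest gaps are those of Gpx4 (1579.8 to 546 TPM) and Sod3 (92.6 to 37.7 TPM).

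The 3 superoxide dismutases differed from each other in their ratios. *Sod1* lies on chr16:90220762-90226333 of the mouse genome build mm10, and had 52783 counts with AAV-GFP and 35323 with AAV-*Wee1-AS*, or 2516 and 1987 TPM. It ranked at place 51 and 81 of all genes by TPM. It was 1.23-fold lower with AAV-*Wee1-AS*, with a log2 ratio of -0.30 (-0.32 to -0.28), close to the median of -0.36 of genes of like GC content. The direction of *Sod1* turned when the trends were removed, to a log2 ratio of 0.38.

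*Sod2* (chr17:13007839-13018119) encodes the mitochondrial enzyme, and had 7659 and 7027 counts, or 60.8 and 65.8 TPM. Its log2 ratio of 0.15 (0.11 to 0.20) was a 1.11-fold higher value with AAV-*Wee1-AS*. Its transcript is poor in GC (42.2%), and the 982 genes of like GC content had a median of 1.34, 63.6% of them being more than 2-fold higher. *Sod2* therefore lay 1.18 below the median of such genes, and its log2 ratio was -1.19 with both trends removed.

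*Sod3* (chr5:52363804-52369738), which encodes the secreted enzyme, had 6238 counts with AAV-GFP and 2151 with AAV-*Wee1-AS*, or 92.6 and 37.7 TPM. It was 2.39-fold lower, with a log2 ratio of -1.26 (-1.33 to -1.19), while genes of like GC content had a median of -0.30. With the trends removed its log2 ratio was -0.87, still lower but no longer past 2-fold. The TPM of *Sod1* was 27.2 times that of *Sod3* with AAV-GFP and 52.7 times with AAV-*Wee1-AS*. Markers of stellate cells, which make collagen in the liver, differed in the same libraries. All 7 of that list were detected, 3 higher and 4 lower, with a median log2 ratio of -0.57 and a summed level of 164 and 129 TPM, 1 was more than 2-fold higher (*Lrat*, 1.48) and 3 were more than 2-fold lower (*Col1a1*, -2.30, *Col3a1*, -2.01, and *Pdgfrb*, -1.08). All 7 were lower with the trends removed, *Lrat* was at -0.10 and *Pdgfrb* at -0.96, and the collagen genes remained past 2-fold, at -2.08 and -2.12. The 6 endothelial markers summed to 192 and 138 TPM, 2 higher and 4 lower, with a median log2 ratio of -0.17 and none past 2-fold. With the trends removed, 1 of them was higher and 5 were lower, with a median of -0.26 and again none past 2-fold. The part of these cells in the value of *Sod3* was not tested.

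**Figure D2:**
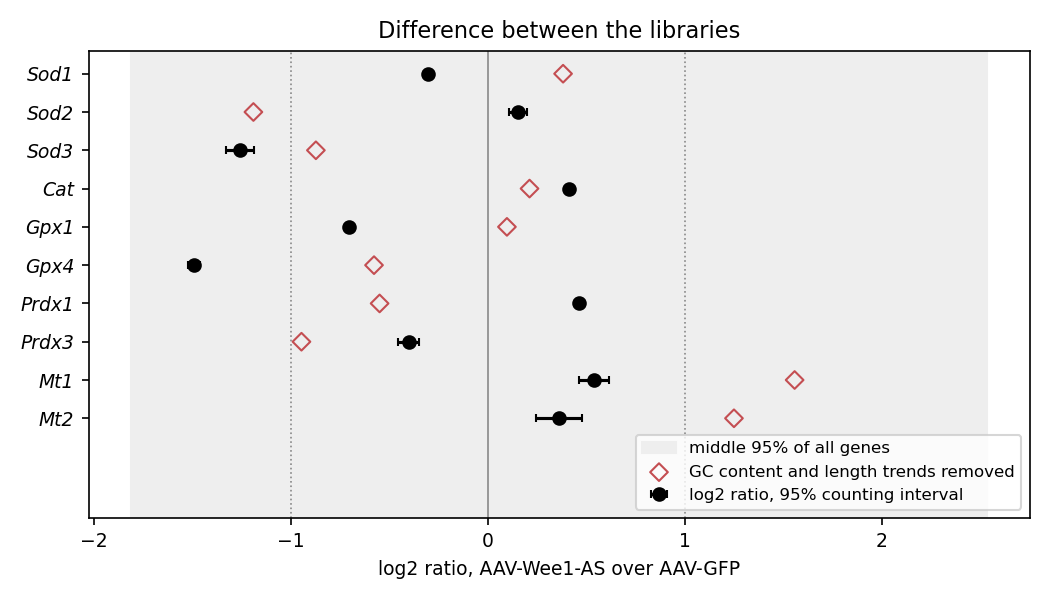
Log2 ratio of AAV-Wee1-AS over AAV-GFP for each member (black points) with its 95% counting interval, beside the value with the trends with GC content and length removed (open diamonds). The grey band holds 95% of all genes before the removal, and dotted lines mark 2-fold. Sod3 and Gpx4 lie past the lower line, and after removal Mt1 and Mt2 lie past the upper line and Sod2 past the lower line.

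The removers of hydrogen peroxide also differed from each other. *Cat* (chr2:103453904-103485153), the peroxisomal enzyme, had 113727 and 124993 counts, or 1354 and 1755 TPM. It was 1.33-fold higher with AAV-*Wee1-AS*, with a log2 ratio of 0.41 (0.40 to 0.43), above the median of 0.25 of genes of like GC content and 0.21 with the trends removed. *Gpx1* (chr9:108339080-108340342), the abundant cytosolic and mitochondrial glutathione peroxidase, had 167205 and 84762 counts, or 4859 and 2909.9 TPM, and went from place 28 to place 61 by TPM. It was 1.63-fold lower, with a log2 ratio of -0.70 (-0.71 to -0.69). Genes of like GC content had a median of -0.61, and the log2 ratio of *Gpx1* was 0.10 with the trends removed. The TPM of *Gpx1* was 3.59 times that of *Cat* with AAV-GFP and 1.66 times with AAV-*Wee1-AS*.

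*Gpx4* (chr10:80047166-80056439) encodes the peroxidase that reduces lipid hydroperoxides in membranes and restrains ferroptosis. It had 41780 counts with AAV-GFP and 12265 with AAV-*Wee1-AS*, or 1579.8 and 546 TPM, and went from place 89 to place 219 by TPM. It was 2.81-fold lower, with a log2 ratio of -1.49 (-1.52 to -1.46), the lowest of the 10 members. Genes of like GC content had a median of -0.66, and 18.7% of them were more than 2-fold lower. With the trends removed, the log2 ratio of *Gpx4* was -0.58. All 4 of its transcripts were lower, with log2 ratios from -2.00 to -1.21. The most counted held 83.9% and 81.2% of its counts. A pair of pseudogenes resembles the gene, so that reads could be split between the copies. *Gpx4-ps2* had 4865 and 1455 counts, a log2 ratio of -1.46, and *Gpx4-ps1* had 42 and 16 counts. The sum of all 3 also gave -1.49.

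GPX1, GPX4 and the plasma enzyme GPX3 carry selenocysteine in the active site, at a TGA codon that would otherwise end the protein. The coding sequence around this codon is shown for both members of the family and for *Gpx3*, since it marks them as selenoproteins, from GENCODE M21 (build GRCm38, the same as mm10), 5′ to 3′ with the TGA codon in capitals. It is codon 47 of *Gpx1* (plus strand, chr9:108339451-108339453), codon 73 of *Gpx4* (plus strand, chr10:80054737-80054739) and codon 73 of *Gpx3* (plus strand, chr11:54907256-54907258).
Gpx1: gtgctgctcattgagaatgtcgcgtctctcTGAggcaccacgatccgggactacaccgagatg
Gpx4: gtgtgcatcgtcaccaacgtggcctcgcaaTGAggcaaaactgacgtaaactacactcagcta
Gpx3: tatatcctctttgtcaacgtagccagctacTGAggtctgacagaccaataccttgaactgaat
Of the 63 bases, 35 were the same in *Gpx1* and *Gpx4* (55.6%), 27 in *Gpx1* and *Gpx3* (42.9%) and 29 in *Gpx4* and *Gpx3* (46.0%).

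The shares of the *Gpx1* transcripts differed between the libraries, although variant 1 held the larger share in both. Variant 1 (NM_008160, 1045 bases) had 158446 counts with AAV-GFP and 48126 with AAV-*Wee1-AS*, 94.8% and 56.8% of the counts of the gene. Variant 2 (NM_001329527, 1042 bases) had 8711 and 36556 counts, 5.21% and 43.1%. On the log2 scale, variant 1 differed by -1.44 (-1.46 to -1.43) and variant 2 by 2.35 (2.31 to 2.38), so that the variants went in opposite directions. Variant 3 (NM_001329528, 941 bases) had 48 and 80 counts. GENCODE lists *Gpx1* transcripts with the same 3-base difference, whose second exon starts at base 108339777 or at base 108339780 of chr9. The bases around this junction are shown because it is where these transcripts differ, with the 3 extra bases in capitals.
Gpx1, exon 2 from 108339777: cagttcggacaccagGAGaatggcaagaat
Gpx1, exon 2 from 108339780: cagttcggacaccagaatggcaagaat
That the deposited variants are these GENCODE transcripts was not verified. Only reads that span the junction can part transcripts that differ by 3 bases, and the counts of variants are shares estimated by the authors' program, so the intervals of the variants understate their error. The sum over the gene does not depend on this split.

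**Figure D3:**
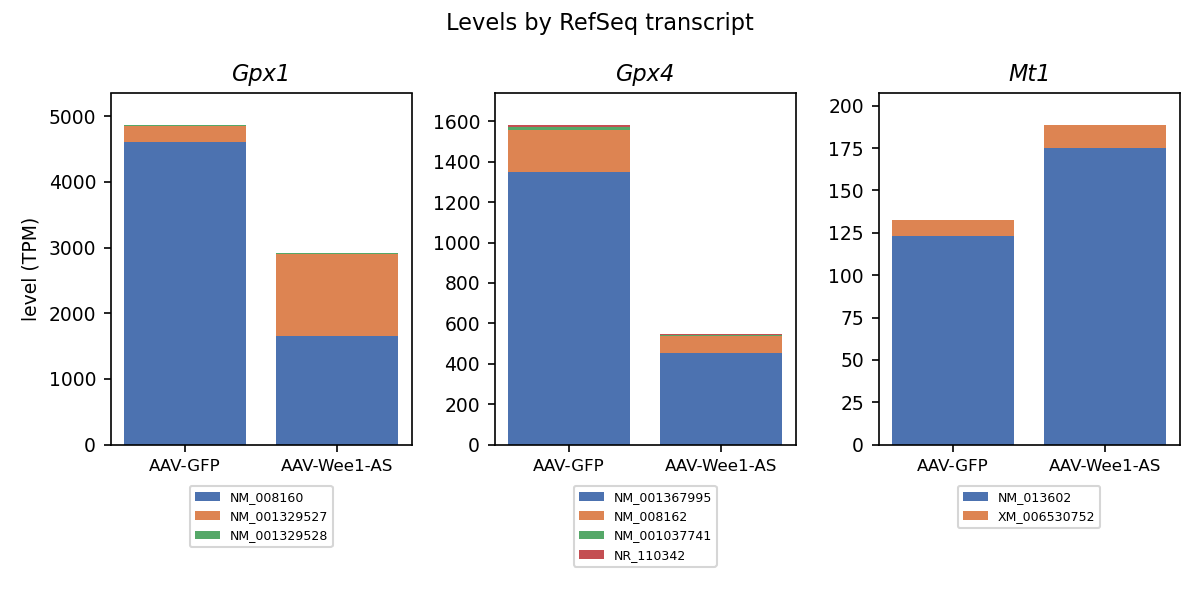
Level in TPM of the RefSeq transcripts of Gpx1, Gpx4 and Mt1, stacked within each library, 1 library per group, each panel with its own axis from 0. Variant 2 of Gpx1 (NM_001329527) makes up 43.2% of the TPM of the gene with AAV-Wee1-AS and 5.22% with AAV-GFP, whereas the shares within Gpx4 and Mt1 are alike in the libraries.

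Other glutathione peroxidases were far less abundant than the members. Of 6, 4 passed the count minimum, 1 was higher and 3 were lower, with a median log2 ratio of -0.91. *Gpx7*, of the endoplasmic reticulum, had 155 and 51 counts, a log2 ratio of -1.30 (-1.81 to -0.86). *Gpx3* had 866 and 355 counts, a log2 ratio of -1.01 (-1.19 to -0.83). Both were thus more than 2-fold lower. *Gpx8* had 66 and 30 counts, and *Gpx6* had 48 counts in each library. *Gpx2*, the enzyme of the gut epithelium, had 9 and 0 counts, and *Gpx5* had 0 in both. Without the trends, *Gpx7* was at -0.61 and *Gpx3* at -0.32, no longer past 2-fold, and *Gpx8* was the one past it, at -1.48 (-0.82 before).

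Glutathione itself is made and kept reduced by another set of enzymes, of which all 10 passed the minimum, with a median log2 ratio of -0.07. *Idh1*, a source of cytosolic NADPH, was more than 2-fold higher (9496 and 19023 counts, a log2 ratio of 1.28). *Gss*, glutathione synthetase, was more than 2-fold lower (8466 and 3334 counts, -1.07), as was *Ggt1* (11 and 0 counts). *Ggt1* was 3.02-fold lower with the floor of 3 counts in place of the 0, and the upper limit of its counting interval was a log2 ratio of -1.05. *Gclc*, the catalytic subunit of the rate-limiting enzyme, had 10486 and 8629 counts, a log2 ratio of -0.00, and *Gsr*, glutathione reductase, had 2574 and 1944 counts, -0.13. Once the trends were removed, *Idh1* was at 0.39 and *Gss* at -0.47, neither past 2-fold, while *Ggt1* stayed past it at a value that rests on the prior count, and the list had 2 higher and 8 lower genes, with a median of -0.41.

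Of 13 genes for the synthesis of selenoproteins and selenoproteins that are not peroxidases, 6 were higher and 7 lower, with a median log2 ratio of -0.05. Of the 13, 3 were more than 2-fold higher, where 22.5% of all genes were. *Sepsecs*, which makes the selenocysteine on its tRNA, had 622 and 2415 counts, a log2 ratio of 2.23. *Selenot* had 1313 and 4463 counts (2.04), and *Selenop*, which carries selenium from liver to other organs, had 111505 and 198791 counts (1.11). The transcripts of these 3 are poor in GC (39.3% to 43.9%), and with both trends removed none of the 13 genes was past 2-fold, against 6.50% of all genes higher and 7.50% lower. By contrast *Selenow*, a small selenoprotein of 57.2% GC, had 6042 and 2643 counts, a log2 ratio of -0.91, and -0.02 with the trends removed.

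Oxidases that make hydrogen peroxide, most of them peroxisomal, are the partners of catalase. Of 11, 10 passed the minimum, 7 were higher and 3 lower, with a median log2 ratio of 0.34. *Hao1*, glycolate oxidase, had 4019 and 9713 counts, a log2 ratio of 1.55, and *Aox3*, an aldehyde oxidase of the cytosol, had 17293 and 30674 counts, 1.10. Both were more than 2-fold higher. *Uox*, urate oxidase, had 62433 and 89040 counts, 0.79. With the trends removed 8 of the 10 were higher, with a median of 0.19, and none was past 2-fold. *Uox* was then among the lower ones, at -0.15. The 16 genes for peroxisome import and assembly were split, 8 higher and 8 lower, with a median of 0.11. Of these, *Abcd3*, a transporter of the peroxisome membrane, had a log2 ratio of 1.35, *Pex13* of 1.25 and *Pex3* of 1.00, just past 2-fold, while *Pex5*, the import receptor of catalase, had 11568 and 6293 counts, -0.60. After removal of the trends *Abcd3* was at 0.41, *Pex13* at -0.19 and *Pex3* at -0.05, and none of the 16 was past 2-fold.

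The peroxiredoxins among the members had opposite ratios. *Prdx1* (chr4:116685599-116700000), the cytosolic enzyme, had 30465 and 34690 counts, or 653 and 877 TPM. It was 1.38-fold higher with AAV-*Wee1-AS*, with a log2 ratio of 0.47 (0.44 to 0.49). Its GC content is 42.3%, genes of like GC content had a median of 1.33, and the direction of *Prdx1* turned with the trends removed, to -0.55. *Prdx3* (chr19:60864066-60874538), the mitochondrial enzyme, had 7362 and 4596 counts, or 155 and 114 TPM. It was 1.32-fold lower, with a log2 ratio of -0.40 (-0.46 to -0.35), and its distance of -1.19 from the median of 0.79 of genes of like GC content was close to the -1.18 of *Sod2*, while *Prdx1* lay at -0.87. With the trends removed its log2 ratio was -0.94. The TPM of *Prdx1* was 4.22 times that of *Prdx3* with AAV-GFP and 7.70 times with AAV-*Wee1-AS*.

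**Figure D4:**
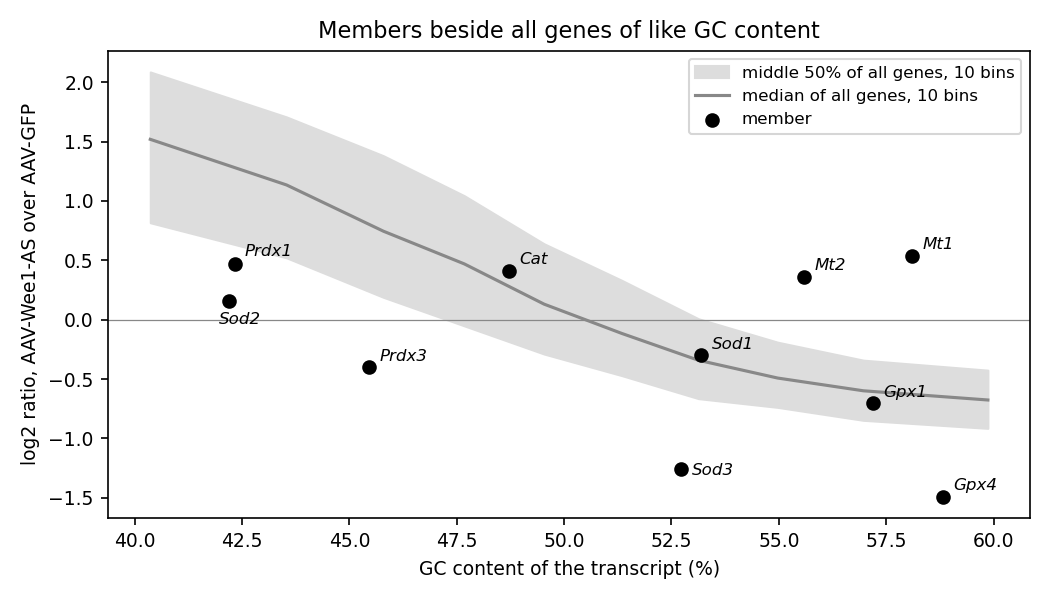
Log2 ratio of AAV-Wee1-AS over AAV-GFP against the GC content of the transcript, for the members (points) and for all genes in 10 bins (line, median, and band, middle 50% of the genes). Sod2, Prdx1 and Prdx3 lie below the band at low GC content, Sod3 and Gpx4 lie below it at high GC content, Mt1 and Mt2 lie above it, and Cat, Sod1 and Gpx1 lie within it.

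The other 4 peroxiredoxins were all lower, with a median log2 ratio of -0.53 and none past 2-fold. *Prdx5*, found in mitochondria, peroxisomes and cytosol, had 16482 and 8212 counts (-0.73), and *Prdx2*, the abundant peroxiredoxin of erythrocytes, had 9293 and 5039 (-0.61). *Prdx4*, of the endoplasmic reticulum, had 5069 and 3045 (-0.46), and *Prdx6*, which has phospholipase activity as well, had 38916 and 29413 (-0.13). *Prdx5* was the exception with the trends removed, at 0.09. The erythroid markers, which bear on *Prdx2*, were lower in 6 of 6, with a median of -0.87 and a summed level of 3357 TPM with AAV-GFP and 1789 TPM with AAV-*Wee1-AS*. Removal of the trends left 4 of the 6 higher and 2 lower, with a median of 0.06, while *Prdx2* was at -0.45. The part of red cells in the values of *Prdx2* and of the members was not tested.

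Peroxiredoxins are reduced by thioredoxin and repaired by sulfiredoxin. Of 14 genes of this system, 5 were higher and 9 lower, with a median log2 ratio of -0.23. The sestrins *Sesn3* (120 and 293 counts, 1.55) and *Sesn1* (246 and 556 counts, 1.45) were more than 2-fold higher. *Srxn1*, sulfiredoxin, was more than 2-fold lower (6382 and 2493 counts, -1.08), and *Sesn2*, at 758 and 370 counts, had a log2 ratio of -0.75. *Txn1*, the cytosolic thioredoxin, had 8346 and 6589 counts (-0.06), and its reductase *Txnrd1* had 5592 and 5120 (0.15). None of the 14 was past 2-fold with the trends removed, when 7 were higher and 7 lower.

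The metallothioneins were both higher with AAV-*Wee1-AS*, against the trend of genes of like GC content. *Mt1* (chr8:94178883-94180327) had 2508 and 3009 counts, or 133 and 188 TPM. It was 1.45-fold higher, with a log2 ratio of 0.54 (0.46 to 0.62), the highest of the 10 members. *Mt2* (chr8:94172618-94173567), its neighbour on the chromosome, had 1192 and 1264 counts, or 65.1 and 81.4 TPM. It was 1.29-fold higher, with a log2 ratio of 0.36 (0.25 to 0.48). The medians of genes of like GC content were -0.65 for *Mt1* (58.1% GC) and -0.53 for *Mt2* (55.6% GC), and 0.878% and 1.70% of such genes were more than 2-fold higher. With both trends removed, the log2 ratios were 1.56 for *Mt1* and 1.25 for *Mt2*. The genes kept a like ratio to each other, the TPM of *Mt1* being 2.04 times that of *Mt2* with AAV-GFP and 2.31 times with AAV-*Wee1-AS*. The most counted transcript of *Mt1* held 87.5% and 88.0% of its counts.

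The coding sequences of *Mt1* and *Mt2* show what the family shares. They are printed from GENCODE M21, plus strand, 5′ to 3′, with the codons for cysteine in capitals, the residues that hold the metal.
Mt1: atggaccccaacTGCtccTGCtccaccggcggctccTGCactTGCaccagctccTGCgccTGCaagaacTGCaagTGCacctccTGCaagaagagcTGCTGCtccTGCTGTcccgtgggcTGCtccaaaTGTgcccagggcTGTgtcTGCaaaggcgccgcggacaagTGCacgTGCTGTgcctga
Mt2: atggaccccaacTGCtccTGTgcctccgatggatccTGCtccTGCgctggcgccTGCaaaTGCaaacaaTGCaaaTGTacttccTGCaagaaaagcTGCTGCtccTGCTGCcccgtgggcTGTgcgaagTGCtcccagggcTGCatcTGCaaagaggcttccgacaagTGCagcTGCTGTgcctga
Each holds 61 codons and a stop codon, 20 of the codons stand for cysteine, and all 20 lie at the same places. Of the 186 bases, 148 (79.6%) are the same, and of the 62 codons 34 are identical.

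The promoters of *Mt1* and *Mt2* are where MTF1, the zinc-sensing factor, is known to act through metal response elements. Their last 150 bases before the RefSeq start are shown (build GRCm38.p6, plus strand, chr8:94178939-94179088 for *Mt1* and chr8:94172468-94172617 for *Mt2*), with matches to the core of this element in capitals, TGCACNC or TGCGCNC on either strand, none of which overlap in these genes. The start used for *Mt1* is that of NM_013602, and the predicted transcript XM_006530752, with 314 and 362 counts, starts further upstream at base 94178883, so that the bases printed for *Mt1* lie within its span.
Mt1: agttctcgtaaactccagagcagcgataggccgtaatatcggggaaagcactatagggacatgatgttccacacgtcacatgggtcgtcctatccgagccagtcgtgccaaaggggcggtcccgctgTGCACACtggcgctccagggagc
Mt2: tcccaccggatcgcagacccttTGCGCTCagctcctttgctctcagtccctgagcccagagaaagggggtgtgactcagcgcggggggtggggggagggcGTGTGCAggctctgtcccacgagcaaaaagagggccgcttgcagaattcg
In the whole window of 300 bases (250 before the start and 50 after it), *Mt1* had 3 matches, *Mt2* had 4 and the zinc exporter gene *Slc30a1* had 2. The printed bases hold 1 of those of *Mt1* and 2 of those of *Mt2*, while 2 and 1 lie after the start. The start codons lie beyond the window, at base 94179311 (*Mt1*) and 94172848 (*Mt2*), and the bases between were not searched. Whether liver uses these RefSeq starts was not tested. None of the other members with a RefSeq entry had a match, and 9 of the 10 members had an entry. At least 1 match was found in 25.7% of 32851 promoter windows and at least 3 in 1.97%. The core of the antioxidant response element, TGACNNNGC on either strand, which neither contains the metal core nor is contained in it, was found in *Mt2*, *Prdx1*, *Sod1* and *Slc30a1*, 1 match each, and in 12.4% of all windows. A match is a run of letters and not a measured binding site.

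Of 10 other genes of zinc handling and metallothioneins, 8 passed the minimum, 5 were higher and 3 lower, with a median log2 ratio of 0.39. *Slc30a1*, whose product moves zinc out of the cell, had 591 and 1479 counts, a log2 ratio of 1.60 (1.46 to 1.74), and 0.65 with the trends removed. Zinc importers of the cell surface went both ways. *Slc39a10* had 53 and 129 counts, 1.52, whereas *Slc39a4* had 5018 and 1243 counts, -1.73 (-1.83 to -1.65), and *Slc39a5* had 383 and 88, -1.82. With the trends removed, *Slc39a10* was at -0.04, whereas *Slc39a4* and *Slc39a5* were still more than 2-fold lower, at -1.09 and -1.05. The list then had 3 higher and 5 lower genes, with a median of -0.12. *Slc39a14*, the importer that inflammation induces in liver, had 9088 and 9831 counts, 0.39. *Mtf1* had 733 and 873 counts, 0.53 (0.39 to 0.67), and -0.21 with the trends removed. *Mt3* and *Mt4*, of brain and squamous epithelium, had 0 counts in both libraries.

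Of 14 genes induced by glucocorticoids or interleukin 6, signals that also induce metallothioneins, 5 were higher and 9 lower, with a median log2 ratio of -0.30. *Fkbp5*, a target of the glucocorticoid receptor, was the one past 2-fold, with 1441 and 3538 counts and a log2 ratio of 1.57 (1.73 with the trends removed). Other genes of the list differed from it. *Per1* had 2047 and 1004 counts (-0.75), *Tat* had 47329 and 27830 (-0.49), *Saa1* had 13642 and 14185 (0.33) and *Hp* had 340818 and 200321 (-0.49). The balance of this list turned with the trends removed, to 9 higher and 5 lower, with a median of 0.14. *Hp* was then at 0.23.

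Copper reaches SOD1 through the chaperone encoded by *Ccs*, which had 8085 and 5596 counts, a log2 ratio of -0.25, close to the -0.30 of *Sod1*. Of 9 genes of copper handling, 4 were higher and 5 lower, with a median log2 ratio of -0.25. *Atp7a*, a copper exporter that liver holds at a low level, was the one past 2-fold, with 74 and 267 counts (2.10, and 0.61 with the trends removed). *Cp*, ceruloplasmin, had 40849 and 58604 counts (0.80), and *Atox1* had 7030 and 3152 (-0.88). Both turned in direction with the trends removed, to -0.53 for *Cp* and 0.19 for *Atox1*, as did *Ccs*, to 0.51.

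Sources and regulators complete the related genes. Of 9 genes of NADPH oxidases, 7 passed the minimum, 2 were higher and 5 lower, with a median of -0.70. *Nox4* had 545 and 1625 counts (1.85) and *Cybb* 482 and 983 (1.30), while their common subunit *Cyba* had 1285 and 459 (-1.20) and the phagocyte subunit *Ncf4* had 138 and 48 (-1.22). None of the 7 was past 2-fold with the trends removed, when *Nox4* was at 0.38 and *Cybb* had turned to -0.16. Of 13 regulators of antioxidant genes, 8 were higher and 5 lower, with a median of 0.24. *Nfe2l2*, which encodes NRF2, had 2855 and 2525 counts, a log2 ratio of 0.10 (0.02 to 0.18), and *Keap1*, its inhibitor, had 4068 and 2510, -0.42. Both directions turned with the trends removed, *Nfe2l2* to -0.38 and *Keap1* to 0.20. *Bach1*, a repressor that competes with NRF2, had 318 and 1271 counts, 2.27 (2.10 to 2.46), and 1.32 with the trends removed. *Ppargc1a* (103 and 216 counts, 1.33) and *Hif1a* (704 and 1411 counts, 1.28) were more than 2-fold higher as well, but were at -0.43 and -0.30 with the trends removed, when 5 of the 13 were higher and 8 lower, with a median of -0.15.

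**Figure D5:**
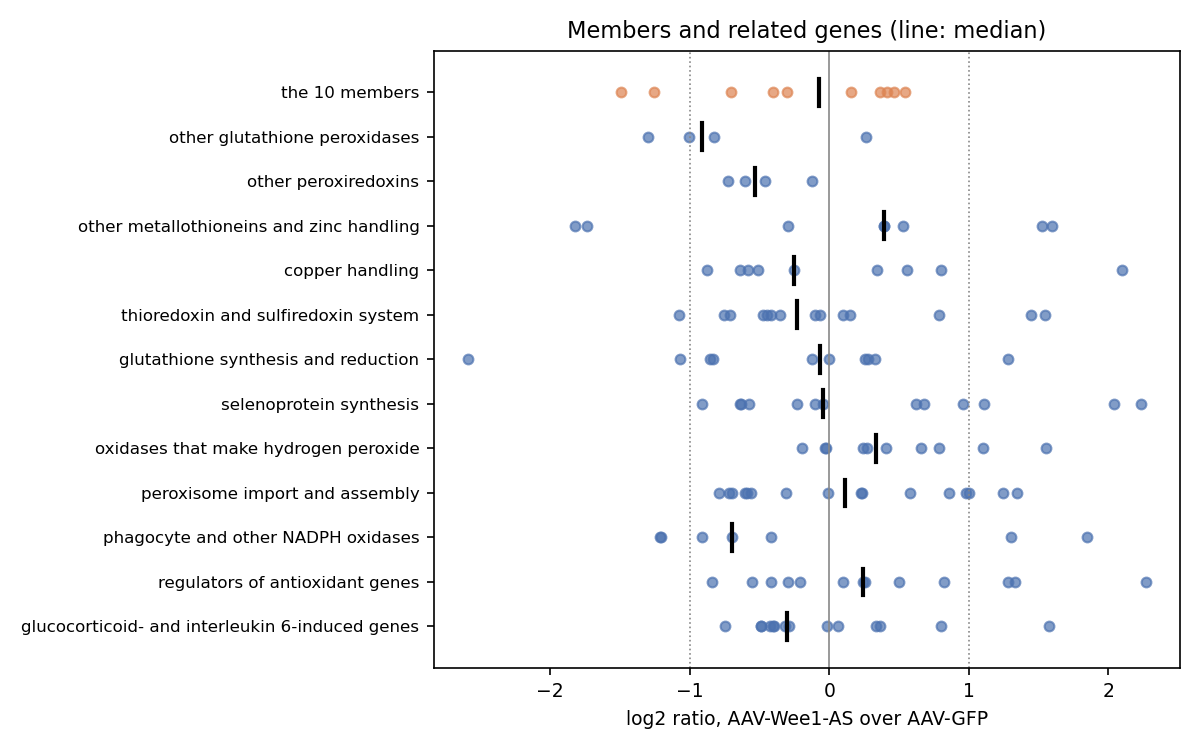
Log2 ratio of AAV-Wee1-AS over AAV-GFP for the 10 members and for each list of related genes, 1 point per gene past the count minimum, with a black line at the median of the list and dotted lines at 2-fold. The medians run from -0.91 for the other glutathione peroxidases to 0.39 for zinc handling, and the members spread from -1.49 to 0.54.

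The labelled tissue was checked by markers. The 7 hepatocyte markers in the table summed to 101225 and 102520.0 TPM, with a median log2 ratio of 0.00 and a range from -0.61 to 1.83. One of them, *Apob*, was more than 2-fold higher, and none was at 0. With the trends removed, *Apob* was at -0.0045 and none of the 7 was past 2-fold. The 8 markers of Kupffer cells and macrophages summed to 497 and 401 TPM (median -0.01, 2 more than 2-fold higher), the 5 of cholangiocytes to 44.1 and 37.9 TPM (median -0.17, none past 2-fold), and the 5 of lymphocytes to 5.77 and 6.46 TPM (median 0.10, 1 more than 2-fold higher). After removal of the trends, 1 marker of Kupffer cells and macrophages was more than 2-fold higher (*Marco*, 2.17). No lymphocyte marker was past 2-fold then, *Ptprc* being at -0.30 (1.14 before). The cholangiocyte markers were 4 higher and 1 lower, with a median of 0.24. The part of these cell types in the values of the members was not tested.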

How the data were processed

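RNA of mouse liver was sequenced from poly-A libraries, 1 per group. Per the labels, the submitters' processing notes name Trimmomatic 0.38, HISAT2 2.1.0, SAMtools 1.9 and StringTie 2.1.3b. The authors deposited, for 129299 transcripts of build mm10, estimated counts, FPKM and TPM values in each library, and no filter was seen. The estimated counts are shares assigned to transcripts, rounded up to whole numbers. Nothing was aligned again. *Wee1-AS* was not analysed here.

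Counts were summed per symbol and scaled by TMM in edgeR 4.0.16 (R 4.3.3), with a prior count of 2 and a minimum of 10 counts in 1 library. Counting intervals were exact (Clopper-Pearson, 95%). A count of 0 was set against a floor of 3 counts. Counting error alone was at most 5.72% of a member's count, and intervals cover nothing else. GC content was found for 15115 genes (95.3%), for 13773 of them and all members from the GENCODE M21 transcript linked to the most counted RefSeq transcript and otherwise from the longest GENCODE transcript, and trends with GC content and length were removed by lowess with a span of 0.3 over 5 cycles (statsmodels 0.14.6, Python 3.11.15). The steps were tested on simulated data. No test was possible with 1 library per group. Genes were named by rule, all 10 members, then in 12 gene lists those past 2-fold with at least 100 counts, at most 5 a list, then other genes of the lists. The 7 marker lists are given by their sums. Members and lists were chosen with earlier results of these data known. Other choices tried were DESeq2 1.42.0 size factors, scaling by totals or upper quartile, other filters and prior counts, FPKM or TPM with a pseudocount of 1, single or protein-coding transcripts and removal of the trends. Removal of the GC trend alone, a minimum of 1000 counts, and *Gpx4* summed with its pseudogenes were chosen after seeing the data.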

Additional observations from a re-analysis of the deposited data

How the results depend on the processing

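Over the alternatives, 121 values of members were recomputed. Of these, 70 stayed within the counting interval, 44 moved beyond it, and 7 reversed, none of them with the trends kept. The 70 include values that could not change, so they do not measure stability. Filters of genes by counts leave the ratio of a member as it was. The choice of transcripts cannot alter a member with 1 transcript. With the trends with GC content and length removed, the reversed log2 ratios were 0.38 for *Sod1*, -1.19 for *Sod2*, 0.10 for *Gpx1* and -0.55 for *Prdx1*, the median of the members was -0.23, 2 members were more than 2-fold higher (*Mt1* and *Mt2*) and 1 more than 2-fold lower (*Sod2*), and 14.0% of all genes were past 2-fold, against 31.0% before. With the GC trend alone removed, *Sod1* was at 0.0067, *Sod2* at -1.15 and *Prdx1* at -0.82, the median was -0.47, 1 member was more than 2-fold higher (*Mt1*) and 3 lower (*Sod2*, *Sod3* and *Prdx3*), and 17.0% of all genes were past 2-fold. Upper quartile scaling moved the median of all genes by -0.13 and that of the members to -0.21. The share of all genes past 2-fold was 12.9% with TPM and 8.43% with FPKM (pseudocount of 1), which changes unit, scaling and pseudocount at once. Taking the transcript with the most counts brought *Gpx1* to -1.44, so that 3 members were more than 2-fold lower, with 36.7% of all genes past 2-fold. *Sod3*, *Gpx4* and *Prdx3* were lower, and *Mt1*, *Mt2* and *Cat* higher, under every alternative run. No paired analysis was possible because each group has 1 library.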
